A study of Homo sapiens with 8 samples.

Results

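The 47 genes described here belong to the tumor necrosis factor (TNF) superfamily and its signaling apparatus. They comprise 24 receptors, 12 ligands, 8 intracellular adaptors of the TRAF group and their partners TRADD and RIPK1, and 3 proteins named for their induction by TNF. They were chosen by gene symbol, with earlier results of these data known, including the authors' list of changed genes. Shares of called members set beside those of all genes are therefore descriptive and were not tested. Of the 47 genes, 44 had at least 1 probe set that carried their symbol alone, with 101 probe sets in all, and 40 genes with 90 probe sets had a mean log2 signal of at least 4 in 1 or both groups and were among the 15226 genes tested. TNFRSF6B, TRAF2 and RIPK1 had no probe set of their own, and TNFRSF11A, TNFRSF11B, TNFSF11 and TNFSF15 stayed below 4. The members nearest to that limit were CD70, with means of 4.21 in PA and 4.13 in control, and TNFSF15, with means of 3.81 in PA and 3.74 in control at its brighter probe set.

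Ligands of the TNF superfamily are trimeric proteins on the cell surface or shed from it, and each binds 1 or more receptors with cysteine-rich extracellular domains. Death receptors carry an intracellular death domain that recruits TRADD or FADD and can start a caspase cascade, whereas decoy receptors bind ligand without passing on a full signal. Most other receptors recruit TRAF adaptors, which lead to NF-kB and to stress-activated kinases, and in leukocytes many of these receptor and ligand pairs act as costimulatory signals. Carcinoma cells also express a part of the family, and the TRAIL receptors are studied in pancreatic cancer as triggers of apoptosis.

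All samples were MIA PaCa-2 cells, an established line from a human pancreatic carcinoma. Cells of the 4 PA samples had received pachymic acid (PA), a triterpenoid of the fungus Poria cocos, at 30 μM for 24 h, and cells of the 4 control samples had received DMSO, the solvent of PA, for 24 h. Total RNA of each sample was hybridized to 1 Human PrimeView array, a chip with several probe sets for many genes, and the log2 RMA signals deposited by the authors were compared. Treatment was done in quadruplicate with RNA isolated from each sample, but the sources do not say whether these were cultures kept apart before treatment, so p-values reflect no more than the variation among these samples, and that may be technical.

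The median signal was 5.71 to 5.77 over the 8 arrays, and the correlation was 0.9964 to 0.9977 between arrays of the same group and 0.9931 to 0.9964 between a PA and a control array. The 8 GC-rich background controls averaged 7.03 ± 0.082 in PA and 6.77 ± 0.155 in control (SD, n = 4 each; exact two-sided permutation test, p = 0.0571). The 15 other background controls averaged 3.16 ± 0.01 in PA and 3.09 ± 0.04 in control, with the groups apart (exact permutation test, p = 0.0286), and spiked hybridization controls averaged 11.02 ± 0.043 in PA and 10.94 ± 0.022 in control (exact permutation test, p = 0.0286, the smallest that 4 against 4 arrays can give). Of 8 epithelial markers, KRT8, KRT18 and KRT19 were bright, and the log2 of the summed signal of the list was 14.38 to 14.48 in PA and 14.31 to 14.40 in control, while the epithelial adhesion genes EPCAM and CDH1 had means of 4.18 and 4.14 in PA and 3.97 and 4.14 in control, at the detection limit. Leukocyte markers summed to 9.64 to 9.72 in PA and 9.65 to 9.75 in control over 12 measured genes. Of these 12, 9 were above 4, such as CD68 at 8.55 in PA and 8.44 in control, and 3, the leukocyte-defining PTPRC, CD3D and MS4A1, were below 4 in both groups. The 10 fibroblast and endothelial markers summed to 10.45 to 10.69 in PA and 10.73 to 11.01 in control. Of these 10, 8 were tested and the fibroblast markers DCN and LUM were below 4. COL1A2 was bright, with means of 9.88 in PA and 10.41 in control, and fell by 0.53 on the log2 scale in PA. The other 7 tested genes of that list did not pass. Among them the endothelial markers CDH5 and KDR changed by 0.39 and 0.28, and COL3A1 by -0.045. Of the leukocyte markers, CD14, a monocyte marker, fell by 0.52. Of the epithelial markers, KRT8 and KRT18 were higher in PA by limma and CLDN4 was lower. What part the shifts of markers, other background and spiked controls had in the changes of the members was not tested. Signals are relative to the RNA on each array, so less RNA per cell and fewer cells of a type cannot be told apart.

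Each gene was represented by its brightest probe set over the 8 arrays, and its change is the mean log2 signal in PA minus that in control. Of the 40 tested members, 12 were higher in PA at an adjusted p under 0.05 by limma, 2 were lower and 26 did not pass. Over all genes tested, 8.23% were called higher and 10.5% lower. With a change of at least 1.5-fold also required, 7 members were higher, namely TNFRSF9, TNFAIP3, TNFSF18, TNFAIP2, TNFRSF12A, TNF and TRAF1, and 1, TNFSF10, was lower, beside 0.466% and 0.709% of all genes. Both group means were at least 4 in all 14 called members, so that none of them entered the test through 1 group alone. With 1 array left out, 12 of the 14 were called in every fit, and the exceptions were TNFRSF10B and TRAF3.

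The median change of the 40 members was 0.145, against 0.015 for all genes, and 31 members (77.5%) had a change above 0, against 53.2% of all genes. In 12 members every PA array was above every control array and in 3 every PA array was below, while this held for 11.9% and 14.5% of all genes. At the level of probe sets, 21 of the 90 were higher and 4 lower in PA, where 8.0% and 9.07% of all probe sets were called. The number of member probe sets that also changed at least 1.5-fold was 11 higher and 2 lower, where the background was 0.475% and 0.658%. Each class of members is described in turn, and the plot of changes by role shows them together.

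**Figure D1:**
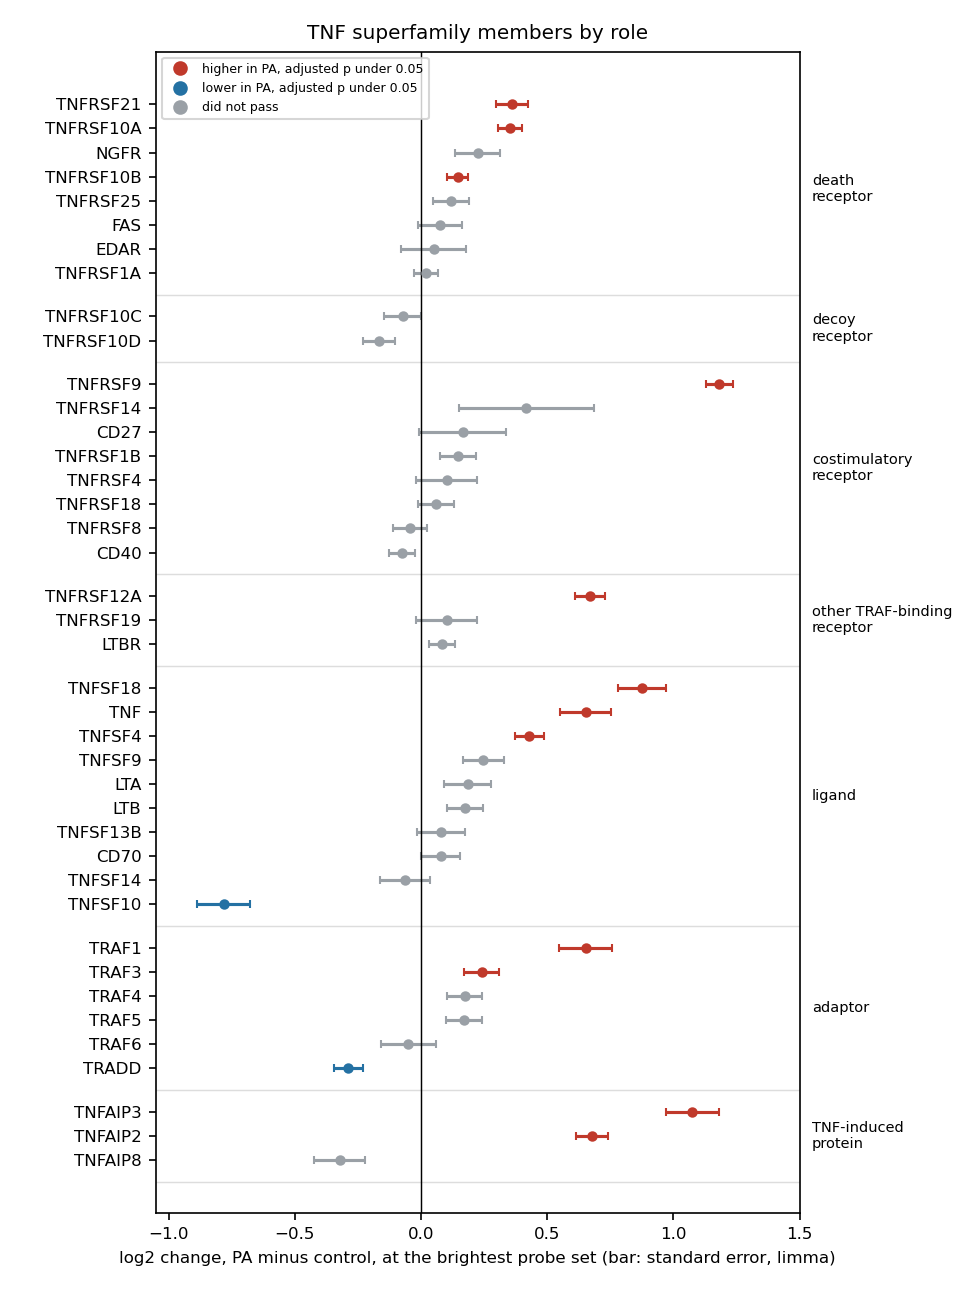
Log2 change (PA minus control, x axis) of the 40 tested members at the brightest probe set, grouped by role down the page, with the standard error of limma as bars. Red points passed the test as higher in PA, blue as lower, and grey did not pass. TNFRSF9 at 1.18 and TNFAIP3 at 1.08 lie farthest to the right, and TNFSF10 at -0.78 farthest to the left.

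Among the 8 death receptors, TNFRSF21, TNFRSF10A and TNFRSF10B rose in PA treated cells and the other 5 did not pass the test. Of all genes, 8.23% were called higher. The median change of the class was 0.13, and all 8 changes at the brightest probe sets were above 0. Dimmer probe sets of TNFRSF25 and EDAR changed by -0.05 and -0.12, and neither passed. TNFRSF21, known as death receptor 6, had signals of 8.05, 8.03, 7.90 and 7.94 in the 4 PA arrays, against 7.68, 7.70, 7.48 and 7.62 in the 4 control arrays. The lowest PA array was above the highest control array. The change was 0.36 ± 0.063 (SE, adjusted p = 0.00618), but 2 dimmer probe sets of TNFRSF21 did not pass, with changes of -0.06 and 0.54.

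TNFRSF10A and TNFRSF10B encode the 2 death receptors of TRAIL. Signals of TNFRSF10A were 8.55, 8.55, 8.51 and 8.57 in PA, against 8.12, 8.16, 8.27 and 8.22 in control. The groups did not overlap, and its single probe set changed by 0.35 ± 0.049 (SE, adjusted p = 0.00232). TNFRSF10B had 11.31, 11.32, 11.27 and 11.25 in PA, against 11.15, 11.14, 11.13 and 11.15 in control, and PA arrays were again all above control arrays. Its change of 0.145 (adjusted p = 0.0443) was the smallest among the called members, and this call was lost in all 8 fits that left out 1 array (adjusted p = 0.0709 to 0.115). A second of its 3 probe sets passed with a change of 0.33.

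At the brightest probe sets of the remaining death receptors the groups overlapped. TNFRSF1A, the main receptor of soluble TNF, averaged 10.17 ± 0.059 in PA and 10.15 ± 0.041 in control (SD, n = 4 each), and none of its 4 probe sets passed, though PA arrays were all above control arrays at 1 of them (change 0.135, adjusted p = 0.0724). FAS, the receptor of FAS ligand, averaged 7.81 ± 0.111 in PA and 7.74 ± 0.155 in control (adjusted p = 0.586). Its other probe set had 7.94, 7.78, 7.81 and 7.98 in PA, against 7.54, 7.69, 7.70 and 7.73 in control, with the groups apart and a change of 0.21 that missed the threshold (adjusted p = 0.0536). The neurotrophin receptor NGFR changed by 0.23 (adjusted p = 0.114), TNFRSF25, the receptor of TNFSF15, by 0.12 and the ectodysplasin receptor EDAR by 0.05.

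Neither of the 2 tested decoy receptors passed, and both had a change below 0 at the brightest probe set. TNFRSF10D and TNFRSF10C bind TRAIL without a complete death domain. TNFRSF10D averaged 9.0 ± 0.115 in PA and 9.17 ± 0.044 in control (SD, n = 4 each), a change of -0.17 (adjusted p = 0.102), whereas its dimmer probe set changed by 0.14 (adjusted p = 0.261). TNFRSF10C changed by -0.07 near the detection limit. Another 2 probe sets of TNFRSF10C also carry the symbol LOC254896, and their changes of -0.32 and -0.21 did not pass.

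TNFRSF6B, a soluble decoy for FAS ligand, was not among the tested members, since both of its probe sets also carry the symbol of the readthrough transcript RTEL1-TNFRSF6B. These 2 probe sets were bright and higher in PA. The first had 11.43, 11.33, 11.35 and 11.44 in PA, against 10.98, 10.96, 11.16 and 11.06 in control (change 0.35, adjusted p = 0.0052). The other changed by 0.32 (adjusted p = 0.00921), and in both the PA arrays were all above the control arrays. Signal from TNFRSF6B and from the readthrough transcript cannot be told apart in them.

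TNFRSF9 alone of the 8 tested costimulatory receptors passed, and it had the largest change among all members. The share of this class called higher, 12.5%, was near the 8.23% of all genes. TNFRSF9 (4-1BB, CD137) is an inducible receptor of activated T cells that binds TRAF1 and TRAF2. Its signals were 7.89, 8.03, 8.08 and 8.04 in PA, against 6.81, 6.78, 6.85 and 6.87 in control. Each PA array lay above every control array, by far more than the spread within either group. The change was 1.18 ± 0.054 (SE), or 2.27-fold (adjusted p = 1.04e-05).

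The RefSeq window of 250 bases before to 50 bases after the start of TNFRSF9 (GRCh38.p14, chr1:7940790-7941089, minus strand) is shown because TNFRSF9 moved most. Capitals mark 2 overlapping matches to the NF-kB consensus motif, from 74 and 73 bases before the start, and 1 match to the AP-1 motif TGANTCA at 44 bases before it.
TNFRSF9: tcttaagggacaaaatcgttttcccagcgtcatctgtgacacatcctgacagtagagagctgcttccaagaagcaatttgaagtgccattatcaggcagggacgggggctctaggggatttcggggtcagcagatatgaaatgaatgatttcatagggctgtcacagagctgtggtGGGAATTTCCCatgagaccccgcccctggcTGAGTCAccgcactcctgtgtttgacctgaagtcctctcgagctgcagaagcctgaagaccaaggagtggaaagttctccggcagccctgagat
Motifs were searched on both strands. The NF-kB consensus was found in 11.3% of 35116 RefSeq windows of this length, AP-1 in 7.71%, and the ISRE core GAAANNGAAA, part of the interferon-stimulated response element, in 3.57%. A match describes the letters only and does not show that a factor was bound.

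The other 7 costimulatory receptors did not pass. TNFRSF14, the receptor of LIGHT, had the widest spread, with 6.91, 7.27, 7.30 and 7.47 in PA and 7.07, 5.95, 7.38 and 6.88 in control. Control replicate 2 was the lowest control array at 5.95, though the check for lone values described below did not flag it. The change of 0.42 had an adjusted p of 0.312. The 7 probe sets of TNFRSF14 all changed by more than 0, from 0.08 to 0.42, and none passed. In the fit with GC-rich background as a covariate, described below, the brightest one changed by -0.17 (adjusted p = 0.853). TNFRSF1B, the TNF receptor found mainly on leukocytes, changed by 0.145 (adjusted p = 0.193), and CD40, a receptor of antigen-presenting and epithelial cells, by -0.08 (adjusted p = 0.35). CD27, TNFRSF4 (OX40), TNFRSF18 (GITR) and TNFRSF8 (CD30) had means of 4.43 to 5.40 in both groups and changes of -0.04 to 0.17.

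TNFRSF12A rose among the 3 tested members of the other TRAF-binding receptors. It is the receptor of TWEAK, known as Fn14, and is induced by growth factors and injury in epithelial cells. The 4 PA arrays had 10.03, 9.89, 9.93 and 9.85, against 9.31, 9.15, 9.26 and 9.30 in the 4 control arrays. The groups were apart, with a change of 0.67 ± 0.058 (SE), or 1.59-fold (adjusted p = 0.000402). LTBR, the receptor of lymphotoxin alpha and beta heterotrimers, was bright at 10.57 ± 0.053 in PA and 10.49 ± 0.063 in control (SD, n = 4 each) and did not pass, nor did TNFRSF19, with a change of 0.10. Of the 21 tested receptors in all, 5 (23.8%) were higher in PA, beside 8.23% of all genes. None passed as lower, where 10.5% of all genes were called lower. The decoy TNFRSF10D, with a change below 0, had an unadjusted p of 0.0262 by limma (adjusted p = 0.102). NGFR, with a change above 0, had an unadjusted p of 0.0311 (adjusted p = 0.114).

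**Figure D2:**
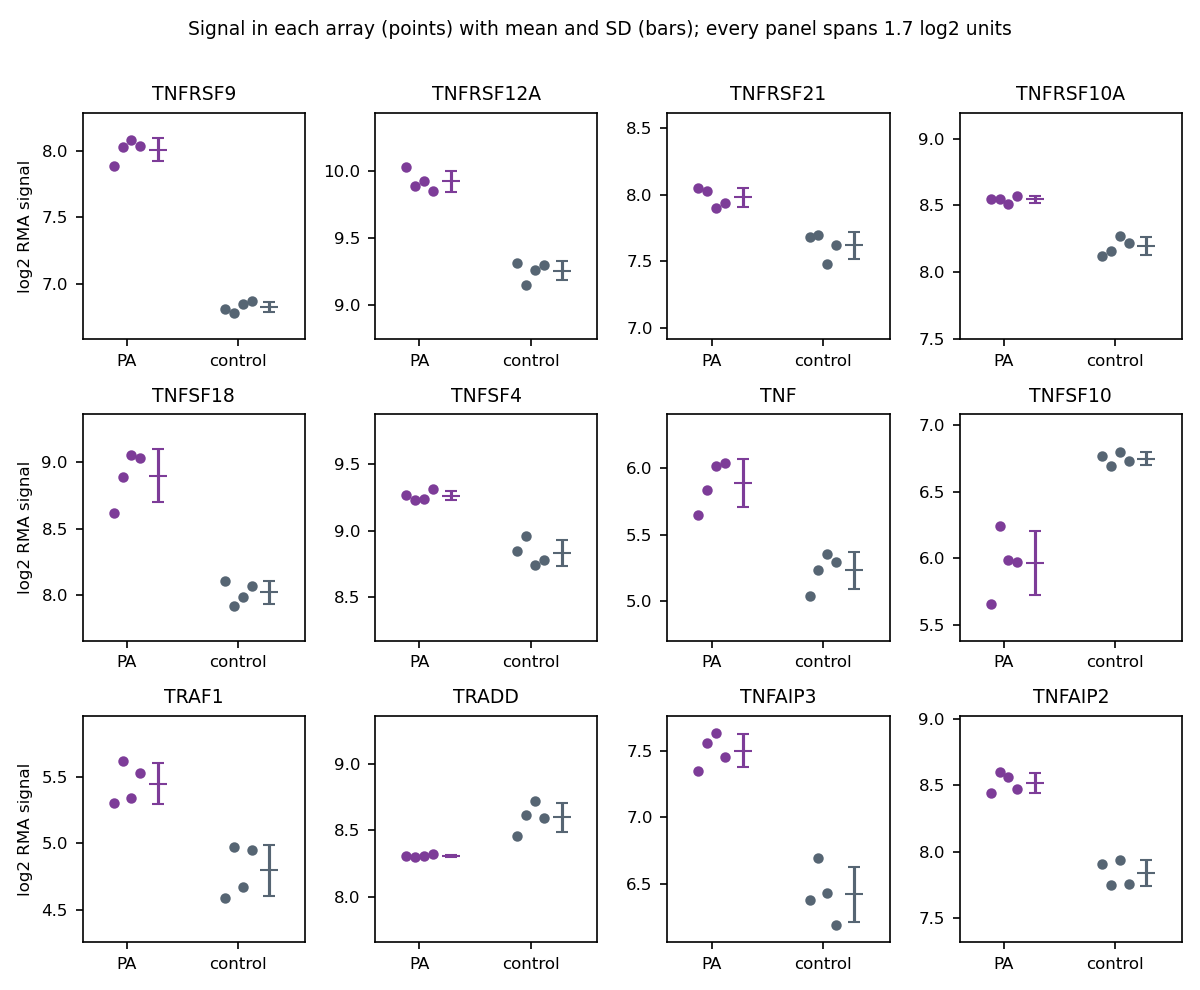
Log2 RMA signal (y axis, each panel spanning 1.7 units) of 12 members, each at its brightest probe set, in each of the 4 PA arrays (left, purple) and 4 control arrays (right, grey), with the mean and SD beside the points. In every panel the groups are apart, with PA above control except for TNFSF10 and TRADD; LTB is not plotted.

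The ligands held the widest range of the classes, with 3 higher, 1 lower and 6 not passed among 10 tested. Of all genes, 8.23% were called higher and 10.5% lower, so the lower count was near the background. TNFSF18, TNFSF4 and TNF rose, TNFSF10 fell, and the median change was 0.18. TNFSF18 (GITR ligand) is a costimulatory ligand of endothelial and antigen-presenting cells. It had signals of 8.62, 8.89, 9.05 and 9.03 in PA, against 8.11, 7.92, 7.99 and 8.07 in control. All PA arrays lay above the control arrays, and the change was 0.88 ± 0.095 (SE), or 1.83-fold (adjusted p = 0.000871). At its other probe set the PA arrays had 7.56, 7.54, 7.55 and 7.68 and the control arrays 6.88, 6.83, 6.98 and 6.91, a change of 0.68 with an adjusted p of 0.00024.

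TNFSF4 (OX40 ligand) is the neighbor of TNFSF18 on chromosome 1, with 0 annotated genes between them, and is likewise a costimulatory ligand. Signals of 9.27, 9.23, 9.24 and 9.31 were measured in PA, against 8.85, 8.96, 8.74 and 8.78 in control. The change at this probe set was 0.43 ± 0.057 (SE, adjusted p = 0.00198). Its dimmer probe set had 5.62, 6.21, 6.0 and 5.75 in PA, against 4.95, 5.22, 5.11 and 5.21 in control, and changed by 0.77 (adjusted p = 0.00415). The groups were apart at both probe sets.

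TNF, the founding cytokine of the family, lay between LTA and LTB on chromosome 6 with 0 annotated genes in between. Signals of TNF were 5.65, 5.84, 6.02 and 6.04 in PA, against 5.04, 5.24, 5.36 and 5.30 in control. The groups did not overlap, and the change was 0.65 ± 0.1 (SE), or 1.57-fold (adjusted p = 0.00355). LTA, lymphotoxin alpha, averaged 7.0 ± 0.185 in PA and 6.82 ± 0.102 in control (SD, n = 4 each) and did not pass (adjusted p = 0.205).

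LTB, lymphotoxin beta, which anchors lymphotoxin alpha to the membrane, gave different results at its 2 probe sets. The brighter one had 7.54, 7.34, 7.33 and 7.50 in PA, against 7.21, 7.14, 7.38 and 7.28 in control. The groups overlapped there, and the change of 0.18 did not pass (adjusted p = 0.126). The dimmer one had 6.79, 7.07, 7.04 and 7.0 in PA, against 6.58, 6.18, 6.51 and 6.13 in control. Here the groups were apart, with a change of 0.63 ± 0.112 (SE, adjusted p = 0.00665).

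The window of LTB (GRCh38.p14, chr6:31582376-31582675, minus strand) is shown since LTB changed at least 1.5-fold at this probe set and has the motif. Capitals mark the 2 NF-kB consensus matches, from 86 bases before and 38 bases after the start.
LTB: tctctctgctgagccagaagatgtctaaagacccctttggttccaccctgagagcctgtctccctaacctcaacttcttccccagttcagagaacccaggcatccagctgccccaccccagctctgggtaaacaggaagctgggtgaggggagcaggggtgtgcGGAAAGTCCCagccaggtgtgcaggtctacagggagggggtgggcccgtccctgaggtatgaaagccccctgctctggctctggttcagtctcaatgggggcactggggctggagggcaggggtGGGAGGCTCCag
The window of TNF had no match to the 3 motifs.

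TNFSF10, which encodes the apoptosis-inducing ligand TRAIL, was the only ligand that fell. Its signals were 5.66, 6.24, 5.99 and 5.97 in PA, against 6.77, 6.69, 6.80 and 6.73 in control. All PA arrays lay below all control arrays, and PA replicate 1 was the lowest. The change was -0.78 ± 0.105 (SE), or 1.72-fold lower (adjusted p = 0.00203). The other 2 probe sets were also lower, with changes of -0.74 (adjusted p = 0.00669) and -0.54 (adjusted p = 0.0192).

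The window of TNFSF10 (GRCh38.p14, chr3:172523381-172523680, minus strand) was chosen after its values were seen, as that of the ligand that fell. Capitals mark the single match, to the ISRE core read on the opposite strand, from 187 bases before the start. Of the 35 members with a window, 6 had an ISRE core. Among them were the ligands TNFSF9, TNFSF13B and TNFSF14, which did not pass, so the match is not particular to the ligand that fell.
TNFSF10: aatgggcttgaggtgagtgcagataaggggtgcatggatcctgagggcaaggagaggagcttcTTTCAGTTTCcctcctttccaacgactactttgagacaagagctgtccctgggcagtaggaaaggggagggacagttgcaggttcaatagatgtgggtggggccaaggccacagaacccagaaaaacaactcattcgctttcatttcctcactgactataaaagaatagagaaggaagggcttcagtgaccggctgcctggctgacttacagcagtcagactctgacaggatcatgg

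The other ligands were low or did not pass. TNFSF9 (4-1BB ligand) averaged 5.93 ± 0.123 in PA and 5.69 ± 0.125 in control (SD, n = 4 each), a change of 0.25 with an adjusted p of 0.0652. TNFSF13B (BAFF, a survival factor of B cells), TNFSF14 (LIGHT) and CD70, the ligand of CD27, had means of 4.13 to 4.94 in both groups and changes of -0.07 to 0.08. TNFSF11 (RANK ligand) and TNFSF15 stayed below 4 in both groups.

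Set beside their receptors, the ligands did not move in one way. For TRAIL, the ligand was lower and both death receptors were higher, TNFRSF10B with a call that was lost without any 1 array, while neither decoy receptor passed. For 4-1BB the receptor rose by 1.18 while the ligand changed by 0.25 without passing. For OX40 and GITR the ligands rose by 0.43 and 0.88 whereas the receptors, near the detection limit, had changes of 0.10 and 0.06. TNF rose while TNFRSF1A and TNFRSF1B did not pass. These are differences between arrays within a gene, and differences between 2 genes were not tested.

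**Figure D3:**
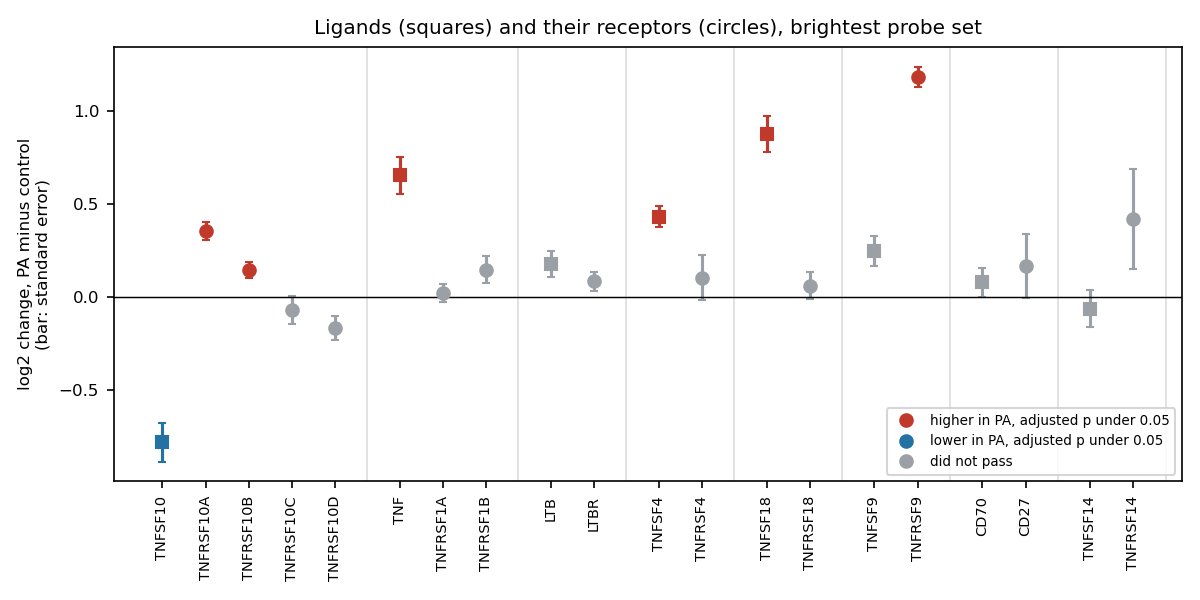
Log2 change (PA minus control, y axis) with the standard error for ligands (squares) and their receptors (circles), in blocks of 1 ligand and its receptors along the x axis. TNFSF10 is at -0.78 beside its death receptors TNFRSF10A at 0.35 and TNFRSF10B at 0.145, and TNFRSF9 is at 1.18 beside its ligand TNFSF9 at 0.25.

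Of the 6 tested adaptors, TRAF1 and TRAF3 rose, TRADD fell, and TRAF4, TRAF5 and TRAF6 did not pass. The shares of all genes were 8.23% called higher and 10.5% called lower. TRAF1 lacks the RING domain of the other TRAFs and is itself induced through NF-kB. It had signals of 5.30, 5.62, 5.34 and 5.53 in PA, against 4.59, 4.97, 4.67 and 4.95 in control. The groups were apart, with a change of 0.65 ± 0.106 (SE), or 1.57-fold (adjusted p = 0.0046). A second probe set changed by 0.38 (adjusted p = 0.0105), and another one lay below 4.

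TRAF3 restrains noncanonical NF-kB signaling by keeping the kinase MAP3K14 at low levels. Its brightest probe set had 9.85, 9.84, 9.76 and 9.79 in PA, against 9.47, 9.46, 9.62 and 9.73 in control, a change of 0.24 with an adjusted p of 0.0393. All 3 probe sets of TRAF3 were higher, by 0.24 to 0.39. At the brightest one the call was lost in 7 of 8 fits that left out 1 array (adjusted p = 0.0174 to 0.099) and was kept without control replicate 4. In TRAF4, an adaptor found at high levels in some carcinomas, 1 of 7 probe sets passed and the brightest changed by 0.17 (adjusted p = 0.115). TRAF5 changed by 0.17 (adjusted p = 0.135), and TRAF6, which links IL-1 and Toll-like receptors to NF-kB, by -0.05 (adjusted p = 0.786).

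TRADD, the adaptor that binds the death domain of TNFRSF1A, was lower at its brightest probe set. PA arrays had 8.31, 8.30, 8.31 and 8.32, against 8.46, 8.62, 8.72 and 8.59 in control. The groups were apart, and the change was -0.29 ± 0.059 (SE, adjusted p = 0.0117). The dimmer probe set had the opposite sign, with a change of 0.24 that did not pass (adjusted p = 0.127), so the 2 probe sets disagree. With the mean of both probe sets the change of TRADD was -0.03 (adjusted p = 0.808).

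**Figure D4:**
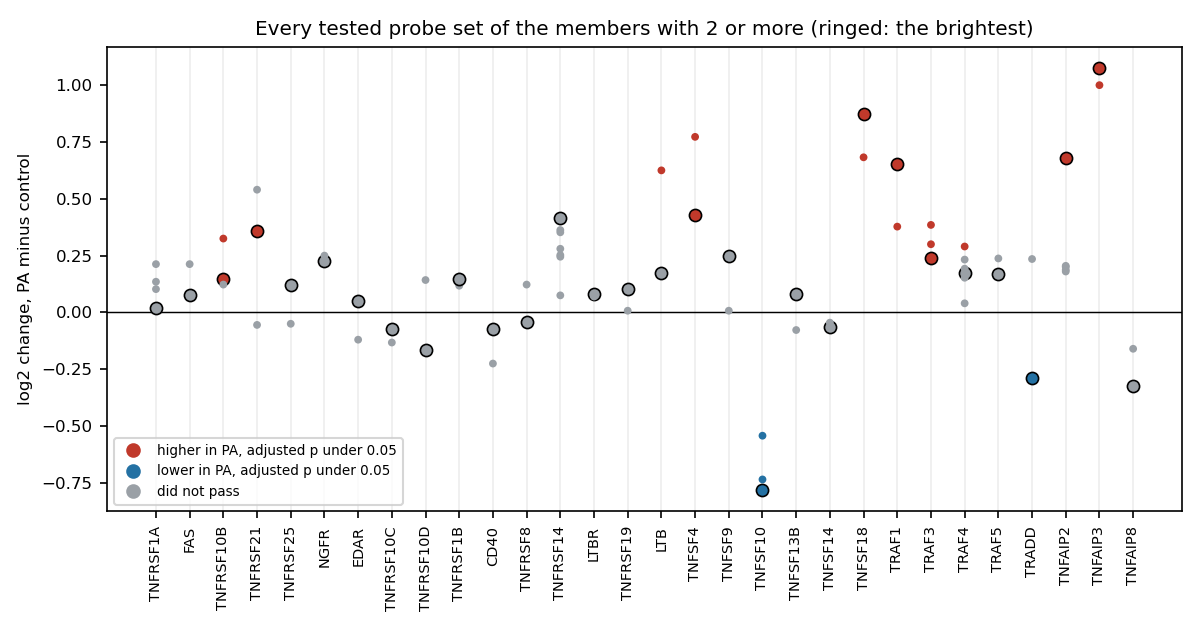
Log2 change (PA minus control, y axis) of every tested probe set for members with 2 or more probe sets, 1 column per gene along the x axis, with the brightest probe set ringed and the color giving the call. The 3 probe sets of TNFSF10 are all below 0 and the 2 of TNFAIP3 all at 1.00 or above, whereas LTB and TRADD have 1 probe set that passed and 1 that did not.

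TNFAIP3 and TNFAIP2 rose among the 3 TNF-induced proteins, and TNFAIP8 did not pass, beside 8.23% of all genes called higher. TNFAIP3 encodes A20, a ubiquitin-editing enzyme that limits NF-kB signaling from TNF receptors. Its signals were 7.35, 7.56, 7.63 and 7.45 in PA, against 6.38, 6.69, 6.43 and 6.19 in control. All PA arrays lay above the control arrays, and the change was 1.08 ± 0.104 (SE), or 2.11-fold (adjusted p = 0.000552). The second probe set had 6.06, 5.86, 6.14 and 6.34 in PA, against 4.98, 5.36, 5.06 and 5.0 in control, a change of 1.00 (adjusted p = 0.00103).

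The window of TNFAIP3 (GRCh38.p14, chr6:137867009-137867308, plus strand) is shown since the gene changed at least 1.5-fold and has the motif. Capitals mark 2 separate NF-kB consensus matches, from 67 and 55 bases before the start.
TNFAIP3: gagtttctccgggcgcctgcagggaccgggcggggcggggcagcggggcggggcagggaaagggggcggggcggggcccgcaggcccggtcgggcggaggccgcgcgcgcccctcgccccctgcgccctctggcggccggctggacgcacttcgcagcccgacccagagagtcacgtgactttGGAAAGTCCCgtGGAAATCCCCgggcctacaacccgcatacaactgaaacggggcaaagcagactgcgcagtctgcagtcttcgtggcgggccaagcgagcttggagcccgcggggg

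TNFAIP2 had 8.44, 8.6, 8.56 and 8.47 in PA, against 7.91, 7.75, 7.94 and 7.76 in control. The groups were apart, with a change of 0.68 ± 0.064 (SE), or 1.6-fold (adjusted p = 0.000507). Its other 4 probe sets, which were dimmer, changed by 0.18 to 0.21, and none of them passed. TNFAIP8, an inhibitor of apoptosis, had 7.57, 7.56, 7.78 and 7.68 in PA, against 8.07, 8.21, 7.79 and 7.81 in control. PA arrays were all below control arrays, yet the change of -0.32 missed the threshold (adjusted p = 0.0553). With GC-rich background as a covariate, described below, the change of TNFAIP8 was -0.008 (adjusted p = 0.975).

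A promoter window was read for 35 of the 47 members, with 51 windows in all. The NF-kB consensus was found in 11 members and in 13 of the 51 windows (25.5%), against 11.3% of all windows. Windows from alternative starts of a gene can share bases. Those of LTB and of TNFSF14 nearly coincide, so the same matches are counted again among the 13. Of 10 members with a window that were called higher, LTB by its dimmer probe set included, 4 had a match, namely TNFRSF9, TNFAIP3, LTB and TRAF3, as had 7 of the other 25. TRAF4, which also passed only at a dimmer probe set and has no match, is among the other 25. The split therefore depends on counting LTB as higher. The windows of TNF, TNFAIP2, TNFSF18, TNFSF4, TNFRSF21 and TRAF1 had none. The motifs were chosen with the results known, and these counts were not tested.

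Other genes of the TNF receptor pathways were counted on a list that does not overlap the members. Of 68 genes listed, 57 were tested. Of these, 12 were higher, 4 were lower and 41 did not pass, with a median change of 0.09, where 8.23% of all genes were called higher and 10.5% lower. The NF-kB subunits and inhibitors held 6 of the 12 among their 10 genes. NFKBIZ, an inducible nuclear member of the IkB family, had 9.90, 10.24, 10.13 and 10.06 in PA, against 8.95, 9.07, 8.91 and 9.18 in control, a change of 1.06 (adjusted p = 0.000259). NFKBIA, the main cytoplasmic inhibitor of NF-kB, rose by 0.64 (adjusted p = 0.000299), the noncanonical subunit RELB by 0.77 (adjusted p = 0.000578) and the precursor gene NFKB1 by 0.44 (adjusted p = 0.000819).

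In the complexes below the receptors, 4 of 18 genes were higher and 2 lower, the second count being near the 10.5% of all genes. CFLAR, the caspase-8 inhibitor c-FLIP, rose by 0.42 (adjusted p = 0.00248) and BIRC2, the ubiquitin ligase cIAP1, by 0.33 (adjusted p = 0.00227). FADD, the adaptor between death receptors and caspases, rose by 0.32 (adjusted p = 0.016), as did the deubiquitinase CYLD (change 0.32, adjusted p = 0.0107). CASP8, the initiator caspase of this complex, fell by 0.22 (adjusted p = 0.0358), and XIAP, a caspase inhibitor, fell by 0.35 (adjusted p = 0.0491). Both belong to the 4 lower pathway genes. That count was 0 in the fit with GC-rich background as a covariate, described below, and also fell when 1 array was left out.

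Among 16 kinases from the TRAFs to NF-kB and JNK, MAP3K7 (TAK1) rose by 0.195 (adjusted p = 0.0186), MAP3K1 fell by 0.31 (adjusted p = 0.0175) and 14 did not pass. Of 13 family genes outside the members, TNFSF12, the ligand TWEAK of TNFRSF12A, was higher with means of 4.28 in PA and 3.87 in control (adjusted p = 0.0276), and it entered the test only through PA. TRAF3IP1 fell by 0.19 (adjusted p = 0.0346). The share called higher was 6.25% of the kinases and 7.69% of these family genes, below the 8.23% of all genes. In each list 1 gene was lower, where 10.5% of all genes were called lower. The count of 4 lower pathway genes was 1 to 3 when any 1 array was left out.

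GC-rich background averaged higher in PA arrays, although the groups overlapped, at 6.92 to 7.12 in PA and 6.59 to 6.945 in control. The other background and spiked controls, whose groups were apart, were not used as covariates. The fit was repeated with the GC-rich mean per array as a covariate. Of the 14 called members, 6 passed in that fit, namely TNFRSF9, TNFAIP3, TNFSF18, TNFRSF12A, TNFSF4 and TNFAIP2, and no other member did. TNFRSF9 changed by 1.19 (adjusted p = 0.00205; 1.82e-08 to 0.00205 over its alternatives) and TNFAIP3 by 1.32 (adjusted p = 0.00793; 4.87e-06 to 0.00793). The changes of TNF, TRAF1, TNFSF10, TRADD and TNFRSF21 were 0.63, 0.74, -0.74, -0.36 and 0.44 and did not pass. TNFRSF10A, TNFRSF10B and TRAF3 did not pass either, with changes of 0.27, 0.14 and 0.09, and the brightest probe set of LTB changed by -0.02. The standard error was larger by a median factor of 1.47 over the 40 members, and over all genes 142 were higher and 116 lower in this fit.

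**Figure D5:**
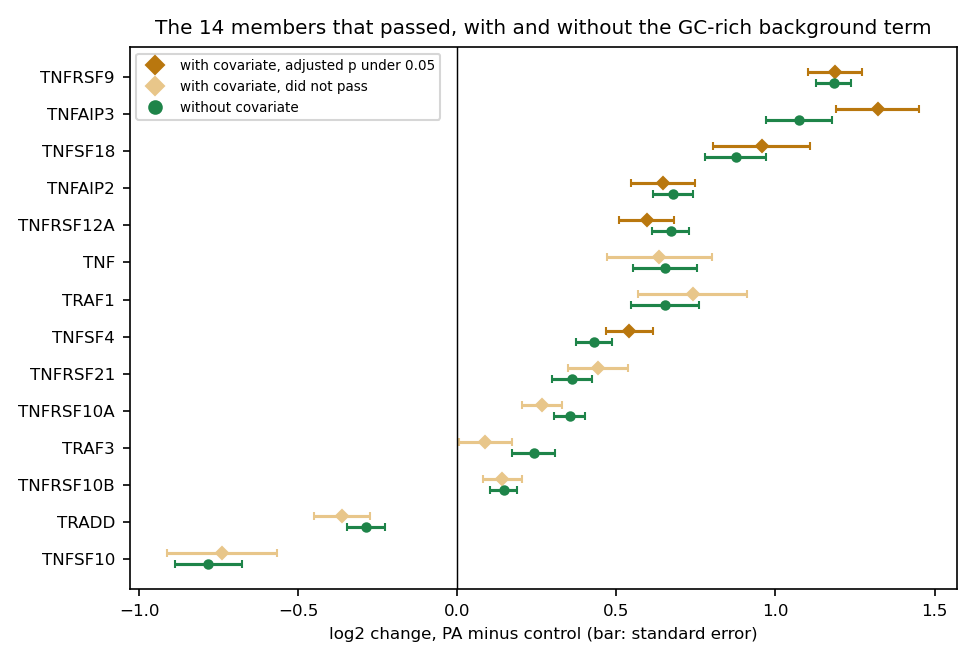
Log2 change (PA minus control, x axis, with the standard error) of the 14 members that passed, fitted with the GC-rich background mean of each array as a covariate (diamonds, dark where the adjusted p was under 0.05) and without it (green circles). The 6 dark diamonds are TNFRSF9, TNFAIP3, TNFSF18, TNFAIP2, TNFRSF12A and TNFSF4.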

How the data were processed

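RNA of 8 samples of MIA PaCa-2 cells, 4 given PA and 4 given DMSO, was measured on Affymetrix Human PrimeView arrays. The authors labeled the RNA with the 3′ IVT Express kit and used Partek Genomics Suite to compute RMA signals: background correction, then quantile normalization, then summarization with median polish. The deposited values are log2 signals, given to 2 decimals. Whether arrays of another cell line shared that normalization is not stated, and software versions are not given in the sources used here.

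Gene symbols came from the array annotation. Of 49395 probe sets, 44994 carried 1 symbol, and 1832 with several symbols were not used for genes. Control probe sets were left out. Tests used the 38748 probe sets with a higher group mean of at least 4, by limma 3.58.1 (lmFit, eBayes) under R 4.3.3, with treatment as the only term and Benjamini-Hochberg adjustment over all of them. A gene was read at its brightest probe set (15226 genes). Permutation tests were exact and two-sided over the 8 arrays (SciPy 1.17.1). The number of arrays limits the precision. The fit was tested on simulated data first.

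Array values are given for each member called by limma (threshold 0.05) and changed at least 1.5-fold at any probe set, and for the largest called change of each class in each direction. TNFRSF10A, TNFRSF10B, TNFRSF14, TNFRSF6B, TRAF3, TNFAIP8 and FAS were added after their values were seen. Of each pathway list up to 4 genes with the smallest adjusted p were named, and CASP8 and XIAP, which fell, were added after their values were seen. The members, lists and motifs were chosen with earlier results of these data known, including the authors' list of changed genes. Promoter windows came from a RefSeq table of GRCh38.p14, of 300 bases each.

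Alternatives were a limit of 5 or none on low signals, a further quantile normalization of the 8 arrays, centring on array medians, limma with an intensity trend or array weights, ordinary ANOVA with Benjamini-Hochberg or Storey-Tibshirani adjustment, the replicate block, GC-rich background as a covariate, the averaged probe sets of each gene, a fit on 1 probe set per gene, and each array left out in turn. Replicate numbers were not treated as pairs in the main fit. Same-numbered arrays correlated at -0.153 to 0.0527 in their deviations from the group means, which cannot show whether those samples were handled together.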

Additional observations from a re-analysis of the deposited data

Results flagged for a closer look

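Each group of 4 arrays was examined for a lone high or low value at the brightest probe set of the 40 tested members, which gave 80 groups, and 2 had one. Both were in TNFRSF10D, a decoy receptor of TRAIL, at the same probe set. PA replicate 1 had a log2 signal of 9.17, while the other PA arrays were between 8.93 and 8.95. Control replicate 4 had 9.23, while the other control arrays were between 9.14 and 9.15. Chance flags about 1 in 20 such groups.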

How the results depend on the processing

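With GC-rich background as a covariate, 6 member genes were higher in PA and 0 lower, 0 lower by at least 1.5-fold, and 9 member probe sets were higher and 0 lower; pathway genes gave 5 higher and 0 lower. In that fit LTB turned to -0.0224 (adjusted p = 0.912; 0.00392 to 0.912 over its alternatives), while TNF, TNFRSF21, TNFSF10, TRADD and TRAF1 kept their direction and lost their call. The count of lower member genes, 2, was 4 with an intensity trend and 1 with the probe sets of each gene averaged, under which TRADD and TNFRSF21 (change 0.28, adjusted p = 0.0825) lost their call and LTB gained one (0.40). The 4 lower pathway genes became 1 with the mean of probe sets, 2 without a filter on low signals, 2 by ordinary ANOVA and 1 with the replicate block. They were 1 without PA replicate 1, 2 or 4 or control replicate 2, 2 without PA replicate 3 or control replicate 1, and 3 without control replicate 3 or 4. With the replicate block, 11 member genes were higher and 2 lower, and it moved no other count of calls by over 1.5 times. Leaving out 1 array gave 10 to 13 higher and 2 to 3 lower member genes; TNFRSF10B lost its call in all 8 of these fits and TRAF3 in 7. Of 240 alternative values of the 12 members chosen by the naming rule, 231 kept direction and side of the threshold. These 12 leave out the called members TNFRSF10A, TNFRSF10B and TRAF3. They include LTB, whose 18 unchanged values were on the side that did not pass. The cause of these shifts was not tested.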
